A study of Mus musculus with 9 samples.

Results

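The extended Nanog locus on mouse chromosome 6 is a stretch of 263849 bp (chr6:122507810-122771658, mm9) that holds the genes Apobec1, Gdf3, Dppa3, Nanog and Slc2a3. It runs from 20 kb before the first of these 5 genes to 20 kb past the last, as annotated in GENCODE vM1, and reaches into Foxj2 on the right. Accessible regions of 9 ATAC-Seq libraries that shared at least 1 bp were joined, and 55 of the 210151 joined regions of the genome lay in the locus. These 55 are called elements here and are named by the distance of their strongest summit from the most upstream annotated Nanog transcription start site (TSS).

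ATAC-Seq maps accessible DNA through cuts made by the Tn5 transposase, and here it followed mouse embryonic fibroblasts (MEFs) on their way to induced pluripotent stem cells (iPSCs). As a reporter, the mid-gestation donor embryos had EGFP linked by an IRES to their own Oct4 gene (Pou5f1), and retroviruses (pMXs) brought in Oct4, Sox2, Klf4 and c-Myc (OSKM). D0 were MEFs at day 0 and D3 were unsorted cells 3 days after induction, while D6T- and D9T- were Thy-1-negative cells of days 6 and 9. D12S+ and D16S+ were SSEA-1-positive cells of days 12 and 16, and iPSCs were fully reprogrammed, unsorted cells. D6 siH3.3 and D6 siNT were Thy-1-negative cells of day 6 per the labels, transfected before OSKM with siRNA against the histone variant H3.3 (genes H3f3a and H3f3b) or with non-targeting siRNA. The library list that accompanies the study gives no sort for this pair, so whether these cells were sorted is not settled. Thy-1 is a surface protein of fibroblasts that is lost early in reprogramming, SSEA-1 is a surface sugar of pluripotent cells, and a sorted library describes the sorted fraction only. All groups came from MEFs with the Oct4 reporter. Each condition had 1 library, so no difference between conditions has a replicate check, and no p-value is given.

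Nanog encodes a homeodomain transcription factor that stabilises the pluripotent state of embryonic stem cells and is silent in fibroblasts. It lies in a cluster of genes of early development: Dppa3 (Stella) encodes a maternal factor that protects DNA methylation in the early embryo, and Gdf3 encodes a ligand of the TGF-beta family. Slc2a3 encodes the glucose transporter GLUT3. Apobec1 encodes a cytidine deaminase that edits apolipoprotein B mRNA, and Foxj2 encodes a forkhead transcription factor.

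The DNA of 9 elements on which the results turn is shown first, as windows of 200 bases centred on the strongest summit, read on the plus strand of mm9. They are the promoters of Nanog and Gdf3 and an element 8.6 kb downstream of Nanog, which were called in late cells only, the element upstream of Dppa3, 3 distal elements called in all 9 libraries, and 2 elements that were called in MEFs and not in D16S+ or iPSCs. Capitals mark matches, on either strand, to any of 10 short motifs that were searched, and small letters are all other bases.
Nanog promoter (chr6:122657367-122657566): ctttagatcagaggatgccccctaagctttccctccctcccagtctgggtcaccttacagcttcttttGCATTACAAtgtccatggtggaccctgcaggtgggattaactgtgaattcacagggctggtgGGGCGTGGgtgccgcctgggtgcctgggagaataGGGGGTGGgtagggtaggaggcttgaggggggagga
Gdf3 promoter (chr6:122559899-122560098): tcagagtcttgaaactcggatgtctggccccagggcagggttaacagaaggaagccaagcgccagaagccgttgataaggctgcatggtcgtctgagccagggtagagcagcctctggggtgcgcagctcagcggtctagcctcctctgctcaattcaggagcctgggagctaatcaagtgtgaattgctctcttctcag
8.6 kb downstream of Nanog (chr6:122665999-122666198): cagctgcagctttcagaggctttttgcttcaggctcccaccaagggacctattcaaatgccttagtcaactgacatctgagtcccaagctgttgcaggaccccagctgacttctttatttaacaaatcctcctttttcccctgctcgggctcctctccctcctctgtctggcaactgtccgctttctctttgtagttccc
Upstream of Dppa3 (chr6:122574621-122574820): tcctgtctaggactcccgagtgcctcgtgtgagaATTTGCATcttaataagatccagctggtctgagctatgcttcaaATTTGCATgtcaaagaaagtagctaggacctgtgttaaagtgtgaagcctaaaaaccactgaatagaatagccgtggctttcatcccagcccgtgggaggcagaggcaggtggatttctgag
4.8 kb upstream of Nanog (chr6:122652590-122652789): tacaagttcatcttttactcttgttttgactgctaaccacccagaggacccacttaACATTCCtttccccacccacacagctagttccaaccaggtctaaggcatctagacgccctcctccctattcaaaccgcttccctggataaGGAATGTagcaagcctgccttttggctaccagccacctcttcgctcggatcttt
44.6 kb upstream of Nanog (chr6:122612858-122613057): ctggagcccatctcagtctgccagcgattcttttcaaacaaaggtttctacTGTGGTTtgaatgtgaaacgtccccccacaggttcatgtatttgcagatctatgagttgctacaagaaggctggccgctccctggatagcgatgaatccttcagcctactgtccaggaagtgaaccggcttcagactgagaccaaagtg
57.4 kb downstream of Nanog (chr6:122714802-122715001): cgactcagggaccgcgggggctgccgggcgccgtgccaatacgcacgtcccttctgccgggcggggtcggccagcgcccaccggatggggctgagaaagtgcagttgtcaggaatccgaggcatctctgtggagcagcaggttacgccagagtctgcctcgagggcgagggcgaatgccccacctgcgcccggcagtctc
17.6 kb upstream of Nanog (chr6:122639837-122640036): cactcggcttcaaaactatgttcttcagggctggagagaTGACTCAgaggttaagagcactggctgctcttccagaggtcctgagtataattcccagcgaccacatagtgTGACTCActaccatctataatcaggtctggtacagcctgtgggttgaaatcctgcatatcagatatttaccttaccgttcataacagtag
51.4 kb downstream of Nanog (chr6:122708817-122709016): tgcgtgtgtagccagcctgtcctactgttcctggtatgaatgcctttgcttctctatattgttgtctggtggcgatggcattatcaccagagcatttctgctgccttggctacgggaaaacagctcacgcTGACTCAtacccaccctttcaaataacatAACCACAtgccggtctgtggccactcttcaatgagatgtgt

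The Nanog promoter window held the composite Oct4-Sox2 motif GCATNACAA, with its first base 72 bp upstream of the TSS, and was the 1 element of 55 to hold it, against 0.946% of the windows of all 210151 regions. It also held the Klf motif GGGNGTGG at 2 places. The window upstream of Dppa3 held the octamer ATGCAAAT in 2 copies, both on the minus strand, a motif seen in 2 of 55 elements and 1.71% of all windows. Among the elements shown, the 2 that were called in MEFs and not in D16S+ or iPSCs held the AP-1 motif TGANTCA. It occurred once in the window 51.4 kb downstream of Nanog, beside the Runx motif TGTGGTT, and at 2 places in the window 17.6 kb upstream. Not all elements of the locus with this pattern held it. The windows of the Gdf3 promoter and of the elements 8.6 kb and 57.4 kb downstream of Nanog held none of the motifs. A match is a stretch of letters and not a measured binding site, and the absence of a match says only that these letters are not in the window.

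Over all 55 elements, the Klf motif was present in 13 windows (23.6%, against 10.1% of all regions) and the AP-1 motif in 8 (14.5%, against 24.2%). The TEAD motif ACATTCC was found in 4 (4.97% of all regions), the Runx motif in 5 (5.88%), and the Sox motif ACAATGG and the Stat motif TTCCNGGAA in 1 each (4.11% and 0.778%). Neither the Esrrb motif TCAAGGTCA nor the CTCF motif CNAGNGGGC matched any element (0.426% and 4.14% of all regions). Each is 1 short form, and other forms of these motifs were not searched. The octamer read on the minus strand ends with the bases that open the composite motif, so these can overlap, and all motifs were read on both strands. By pattern, AP-1 matched 5 of the 9 elements that were called in more than 1 library but not in D16S+ or iPSCs, against 44.8% of all regions with that pattern. It matched 0 of the 12 elements called only in late cells, against 5.22% of such regions. The median GC content was 49.5% in the 55 windows and 50% in all windows.

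For each summit the files give a pileup: tags were lengthened to 200 bp, and those over the summit were counted. It is given here as tags and as CPM (tags per 1000000 total tags of the library), in parentheses with or without a 95% Poisson interval that covers counting error only. Depth ran from 13213117 tags in D9T- to 31714845 in D0. The weakest summit called had 0.331 CPM in D3, the lowest of the 9 libraries, and 0.530 CPM in D9T-, the highest. An element that was not called may therefore still be open more weakly, or in a stretch narrower than the shortest peak of 200 bp. The libraries also differed in overall height: over the 12307 regions called in all 9, the median was 0.883 CPM in D0, 1.98 in D3, 3.41 in D6T-, 1.36 in D9T-, 2.1 in D12S+, 1.98 in D16S+, 1.05 in iPSCs, 1.29 in D6 siH3.3 and 1.19 in D6 siNT. Values divided by this median are called relative pileup below, and a result on the elements that holds on 1 of these scales only is given on both. In these bulk libraries, more cells with an open site and a wider opening in each cell cannot be told apart.

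As a check of the labels, promoters of 10 pluripotent cell markers were called in 4 cases in D0, in 8 in D12S+ and in 10 in both D16S+ and iPSCs. The promoters of 10 fibroblast markers were called in 8 cases in D0, D12S+ and D16S+ and in 6 in iPSCs, so they did not separate the cells, and the promoter of Pou5f1, the gene that carries the reporter, was at 13.1 CPM already in D0.

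**Figure D1:**
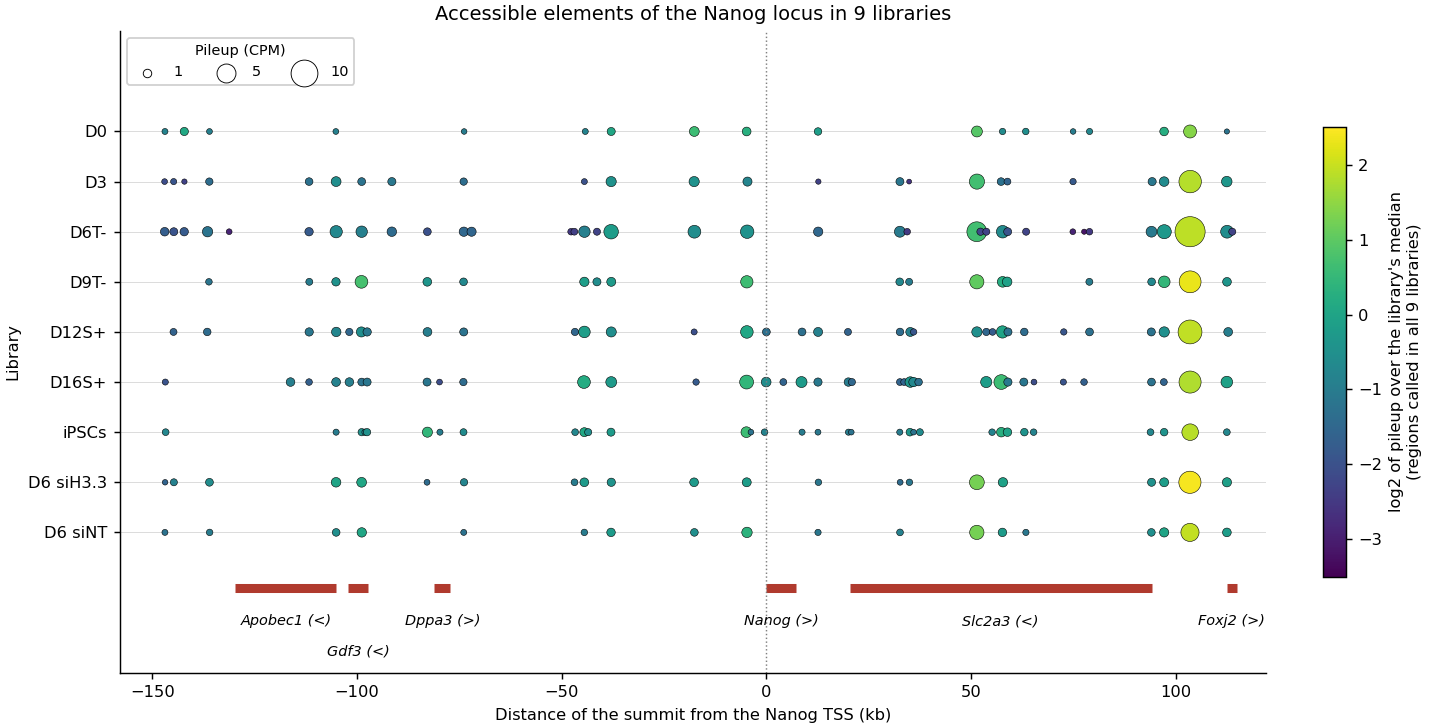
Elements of the Nanog locus in each library. The horizontal axis is the distance of each library's summit from the Nanog TSS in kb, each row is 1 library, the area of a circle is proportional to its CPM and its colour is the log2 relative pileup; bars below are the 5 genes and Foxj2 with their direction. In the stretch from Nanog to the start of Slc2a3, D0 shows 1 circle, whereas D16S+ shows 11.

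The locus was dense in accessible sites, with 208 elements per Mb against 79.2 regions per Mb over the genome. The elements were from 200 to 2237 bp wide and covered 13.3% of the locus. By the place of the strongest summit, 22 were intergenic, 23 lay in introns and 10 in exons, and 16 of the 55 touched the 3 kb upstream of a TSS.

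From D9T- to iPSCs, the share of the 55 elements that was called exceeded the background by more than a factor of 2, while in D0, D3 and D6T- it was close to it and in both day 6 siRNA libraries it was higher. In D0, 18 elements were called (32.7%), where 36.5% of all 210151 regions were called. D3 had 24 (43.6%, background 48.2%) and D6T- had 36 (65.5%, background 61.7%). D9T- had 20 elements, or 36.4%, against a background of 16.0%. In the late cells, D12S+ had 33 (25.0% of all regions), D16S+ had 36 (22.3%) and iPSCs had 32 (27.0%). D6T- and D16S+ thus both had 36 elements, although D6T- had 2.77 times as many regions called over the genome. Of the day 6 siRNA libraries, D6 siH3.3 had 21 elements (38.2%, background 20.6%) and D6 siNT had 18 (32.7%, background 20.2%).

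**Figure D2:**
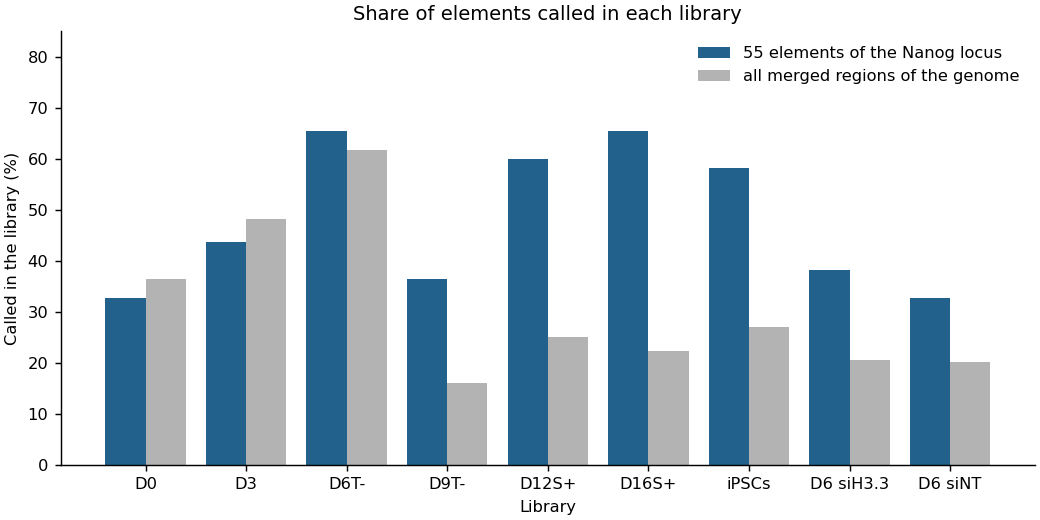
Share of elements called in each library. Bars give the percentage of the 55 elements of the locus (blue) and of all joined regions of the genome (grey) called in each of the 9 libraries; the locus lies below the genome in D0 and D3 and is higher by more than a factor of 2 from D9T- to iPSCs.

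By pattern, 9 elements were called in all 9 libraries (background 5.86%), and 12 were called in at least 2 of D12S+, D16S+ and iPSCs and in no other library (21.8%, background 4.17%). Of these 12 late elements, 5 were called in all 3 late libraries (background 1.60%): the promoters of Gdf3 and Nanog, and elements 8.6 kb, 20 kb and 35.9 kb downstream of the Nanog TSS, the last near the start of Slc2a3. A further 6 elements were not called in D0, appeared in D3, D6T- or D9T-, and were called in all 3 late libraries (10.9%, background 3.49%). In contrast, 9 elements were called in more than 1 library but not in D16S+ or iPSCs (16.4%, background 28.7%). Of the 18 elements of D0, 6 were lost in this way (33.3%), where 69.1% of the regions of D0 were. Only 12 elements were called in 1 library (21.8%, background 46.5%), 5 of them in D6T-, 4 in D16S+ and 3 in iPSCs. The remaining 7 elements followed none of these patterns.

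The Nanog promoter element (chr6:122656972-122657687) holds the TSS and was not called in D0, D3, D6T-, D9T-, D6 siH3.3 or D6 siNT. It had 15 tags in D12S+ (0.852 CPM, interval 0.477 to 1.40), 28 in D16S+ (1.32, 0.879 to 1.91) and 16 in iPSCs (0.602, 0.344 to 0.978). The level was thus highest in D16S+, and all 3 late libraries lay above the lowest pileup called in any library. D16S+ was 2.20 times iPSCs in CPM (interval 1.15 to 4.35), but 1.17 times in relative pileup. D16S+ against D12S+ gave 1.55 (0.802 to 3.13), an interval that includes equal levels. The summits lay 8 bp downstream of the TSS in D12S+, 41 bp upstream of it in D16S+ and 429 bp upstream in iPSCs, so the sequence window shown above is centred on the summit of D16S+ and does not reach that of iPSCs. The lowest pileup called equalled a relative pileup of 0.110 in D6T- and 0.167 in D3, below the 0.405 of the promoter in D12S+. It was 0.393 in D0 and 0.389 in D9T-, close to that value, so that a promoter as open as in D12S+ could just have been called there.

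Immediately upstream, the element 4.8 kb from the Nanog TSS was called in all 9 libraries, also in MEFs. It had 34 tags in D0 (1.07 CPM), 35 in D3 (1.16), 54 in D6T- (2.52), 28 in D9T- (2.12), 39 in D12S+ (2.21), 57 in D16S+ (2.69) and 43 in iPSCs (1.62). D6 siH3.3 had 21 tags (1.12) and D6 siNT had 33 (1.51). It was higher in D6T- to D16S+ than in D0 and D3 in CPM, but its relative pileup of 1.21 in D0 lay within the range of 0.583 (D3) to 1.56 (D9T-) of the other time-points. The ratio of iPSCs to D0 was 1.51 (0.940 to 2.44). This site next to Nanog was thus open throughout, whereas the promoter reached no call before D12S+.

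Further upstream, the element 44.6 kb from the Nanog TSS, between Dppa3 and Nanog, was also called in all 9 libraries. It had 16 tags in D0 (0.504 CPM), 15 in D3 (0.496), 39 in D6T- (1.82), 16 in D9T- (1.21), 33 in D12S+ (1.87), 48 in D16S+ (2.27) and 30 in iPSCs (1.13). D16S+ was 4.49 times D0 (2.51 to 8.48) and 2.00 times in relative pileup, and iPSCs were 2.24 times D0 (1.18 to 4.39) and 1.88 times in relative pileup. These ratios compare different summits of the joined element, 44230 bp upstream of the TSS in D0 and 44550 bp in D16S+. The summits of D16S+ and iPSCs lay outside the region called in D0. The sequence window shown above does not reach that region. D0 and D3 were thus the lowest of the time course in CPM, whereas in relative pileup D3 (0.25) and D6T- (0.534) were the lowest, below D0 (0.571). The element 37.9 kb upstream, its neighbour among those called throughout, ran from 0.903 CPM in iPSCs to 2.95 in D6T- and from 0.676 (D12S+) to 1.04 (D0) in relative pileup. Its ratio of D16S+ to D0 was 1.81 (1.07 to 3.07) in CPM and 0.805 in relative pileup, so its direction depended on the scale.

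Downstream of Nanog, the element 8.6 kb from the TSS (chr6:122665111-122666363) followed the promoter. It was called in D12S+ with 15 tags (0.852 CPM), in D16S+ with 36 (1.70) and in iPSCs with 14 (0.527), and in no other library. D16S+ was 3.23 times iPSCs (1.70 to 6.48), and 1.71 times in relative pileup. The element 20 kb downstream, past the end of the annotated Slc2a3 gene, had 12 tags in D12S+, 21 in D16S+ and 14 in iPSCs. In CPM it was highest in D16S+, at 1.88 times iPSCs (0.913 to 4.00), and in relative pileup both were at 0.500. An element in an exon of Nanog, 4.15 kb from the TSS, was called in D16S+ alone, with 14 tags.

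From the Nanog promoter to the promoter of the main Slc2a3 transcripts lay 11 elements, over a distance of 37.2 kb. D0 had 1 of them called, 12.7 kb downstream of the TSS, with D3 and D6T- at 3 each and D9T- at 2. D12S+ had 7, D16S+ had all 11 and iPSCs had 9, and 6 of the 11 were late elements (background 4.17%). The elements 4.15 kb and 33.7 kb downstream were called in D16S+ alone, so D16S+ itself brought them into the count. As a background, 36.5% of all regions were called in D0, 48.2% in D3, 61.7% in D6T- and 16.0% in D9T-. The late libraries had 25.0% (D12S+), 22.3% (D16S+) and 27.0% (iPSCs). By comparison, of the 27 elements before the Nanog promoter, 9 were called in D0 and 14 each in D12S+, D16S+ and iPSCs, and 3 were late elements. Past the Slc2a3 promoter lay 17 elements, 3 of them late elements. Of these 17, 8 were called in D0, 14 in D6T-, 12 in D12S+, 11 in D16S+ and 9 in iPSCs. The bounds of these stretches were set with the values known, so the counts describe the locus and carry no test.

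**Figure D3:**
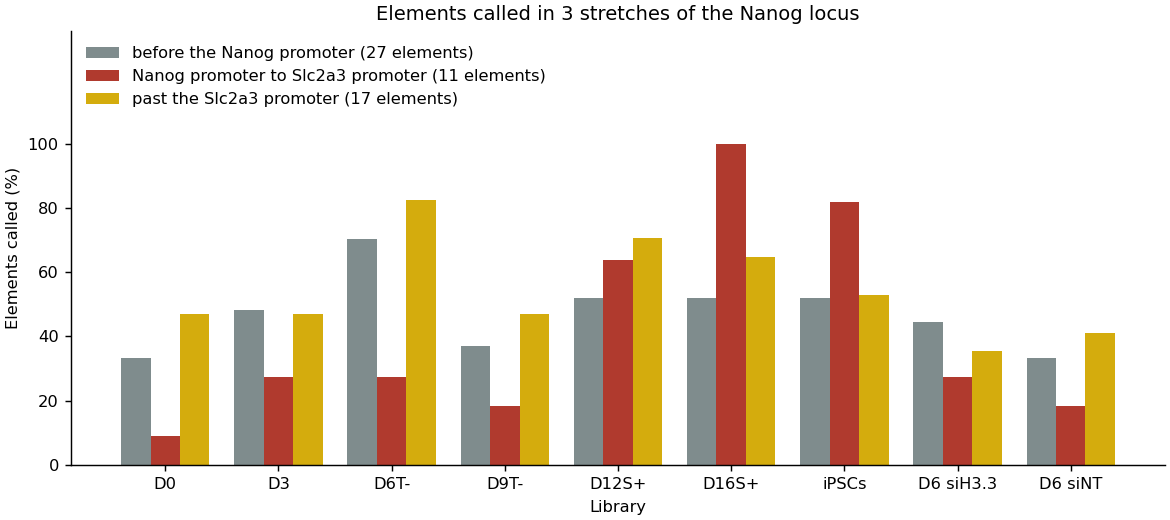
Elements called in 3 stretches of the locus. Bars give the percentage of the elements of each stretch called in each library, for the 27 elements before the Nanog promoter (grey), the 11 from the Nanog promoter to the Slc2a3 promoter (red) and the 17 past it (yellow); the red bars are the lowest in D0, D3, D6T- and D9T- and the highest in D16S+ and iPSCs.

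The promoter of Gdf3 showed the same late onset as that of Nanog. It was called in D12S+ with 17 tags (0.965 CPM), in D16S+ with 19 (0.897) and in iPSCs with 20 (0.752), and in no other library, and the 3 values had overlapping intervals. An element in an intron of Gdf3, 1500 bp past the TSS, behaved differently: it was not called in D0 and had 26 tags in D3, 39 in D6T-, 30 in D9T-, 25 in D12S+, 18 in D16S+ and 20 in iPSCs. On both scales this intron element was highest in D9T-, at 2.27 CPM and a relative pileup of 1.67. In D6T- it was at 1.82 CPM and 0.534. Both siRNA libraries had it, with 25 tags in D6 siH3.3 (1.34 CPM) and 27 in D6 siNT (1.24). The intron of Gdf3 was thus accessible from D3 on, before its promoter was called. An element in an exon of Gdf3, 101.9 kb upstream of Nanog, was called only in D12S+ (13 tags) and D16S+ (22).

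Upstream of Dppa3, an element of 522 bp (chr6:122574442-122574963) was not called in D0 or D3. It had 18 tags in D6T- (0.841 CPM), 14 in D9T- (1.06), 19 in D12S+ (1.08), 19 in D16S+ (0.897) and 38 in iPSCs (1.43). Among these it was highest in iPSCs, at a relative pileup of 1.36 against 0.247 in D6T-, and in iPSCs it was 4.12 times the lowest pileup called in D0. This is the element with the paired octamers. It overlaps the 3 kb upstream of the Dppa3 TSS and not the last 1 kb, so with a promoter of 1 kb Dppa3 had no promoter element in any library. An element in an intron of Dppa3, 1010 bp past the TSS, was called in D16S+ (10 tags) and iPSCs (14) only.

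The Apobec1 promoter was called in all 9 libraries, with 15 tags in D0, 41 in D3, 45 in D6T-, 13 in D9T-, 22 in D12S+, 23 in D16S+ and 14 in iPSCs. In CPM, D6T- was 4.45 times D0 (2.43 to 8.59) and D16S+ was 2.30 times D0 (1.15 to 4.73), whereas relative pileups of the time course lay between 0.500 (iPSCs) and 0.722 (D9T-). The start of Slc2a3, the gene on the other side of Nanog, was not called in D0 or D6 siNT. It had 10 tags in D3 (0.331 CPM), 13 in D6T- (0.608), 9 in D9T- (0.681), 20 in D12S+ (1.14), 33 in D16S+ (1.56) and 22 in iPSCs (0.828). Its relative pileup was 0.167 in D3 and 0.786 in both D16S+ and iPSCs. These values compare different summits of the joined element, which were spread over 763 bp. The summit of D16S+ lay outside the region called in D3. The start of the longest Slc2a3 transcript, 94.1 kb from the Nanog TSS, was called in every library but D0, with 11 to 35 tags. The shared start of Foxj2 and the non-coding RNA gene Gm4485 was called in all 9, with 12 tags in D0, 47 in D3, 49 in D6T-, 14 in D9T-, 19 in D12S+, 40 in D16S+ and 17 in iPSCs. In CPM it was highest in D6T- (2.29), and in relative pileup in D16S+ (0.952).

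Within the long Slc2a3 transcript, a pair of elements 5.99 kb apart differed in the late cells. From D0 to D6T-, the elements 51.4 kb and 57.4 kb from the Nanog TSS both rose in CPM (3.27-fold and 3.87-fold). In relative pileup these ratios were 0.847 and 1.00. The element 51.4 kb from the Nanog TSS had 53 tags in D0 (1.67 CPM), 97 in D3 (3.21), 117 in D6T- (5.47), 37 in D9T- (2.80) and 26 in D12S+ (1.48), and was not called in D16S+ or iPSCs. Its relative pileup was even from D0 to D9T-, between 1.60 and 2.06, then 0.703 in D12S+. D12S+ was 0.27 times D6T- (0.169 to 0.416), and 0.438 times in relative pileup. In iPSCs the lowest pileup called was 4.44 times below the level of D0. The siRNA libraries of day 6 had 57 tags in D6 siH3.3 (3.05 CPM) and 62 in D6 siNT (2.85). The 7 summits of this element lay within 35 bp of each other. The element 57.4 kb from the TSS was called in all 9 libraries, with 18 tags in D0 (0.568 CPM), 25 in D3 (0.827), 47 in D6T- (2.20), 21 in D9T- (1.59), 37 in D12S+ (2.1), 64 in D16S+ (3.02) and 34 in iPSCs (1.28). D16S+ was 5.33 times D0 (3.12 to 9.55), and 2.37 times in relative pileup. This ratio compares different summits of the joined element, 57706 bp from the TSS in D0 and 57394 bp in D16S+. The summit of D16S+ lay outside the region called in D0. The sequence window shown above does not reach the summits of D0, D6T-, D9T-, D12S+ or the siRNA libraries. Between the elements 51.4 kb and 57.4 kb from the TSS, the element 53.7 kb from it was called in D6T- (15 tags), D12S+ (13) and D16S+ (37), and not in iPSCs.

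The element 17.6 kb upstream of Nanog was likewise not called in D16S+ or iPSCs. It had 43 tags in D0 (1.36 CPM), 44 in D3 (1.46), 49 in D6T- (2.29) and 9 in D12S+ (0.511), and was not called in D9T-. From D0 to D6T- its direction depended on the scale: its relative pileup was 1.54 in D0, 0.733 in D3, 0.671 in D6T- and 0.243 in D12S+. D12S+ was 0.223 times D6T- (0.0963 to 0.459). The strongest element of the locus lay 103.5 kb downstream of Nanog, before Foxj2, with 75 tags in D0, 212 in D3, 271 in D6T-, 88 in D9T-, 140 in D12S+, 144 in D16S+ and 102 in iPSCs. In CPM it ran from 2.37 in D0 to 12.7 in D6T-, whereas its relative pileup stayed between 2.68 (D0) and 4.89 (D9T-) in the time course.

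**Figure D4:**
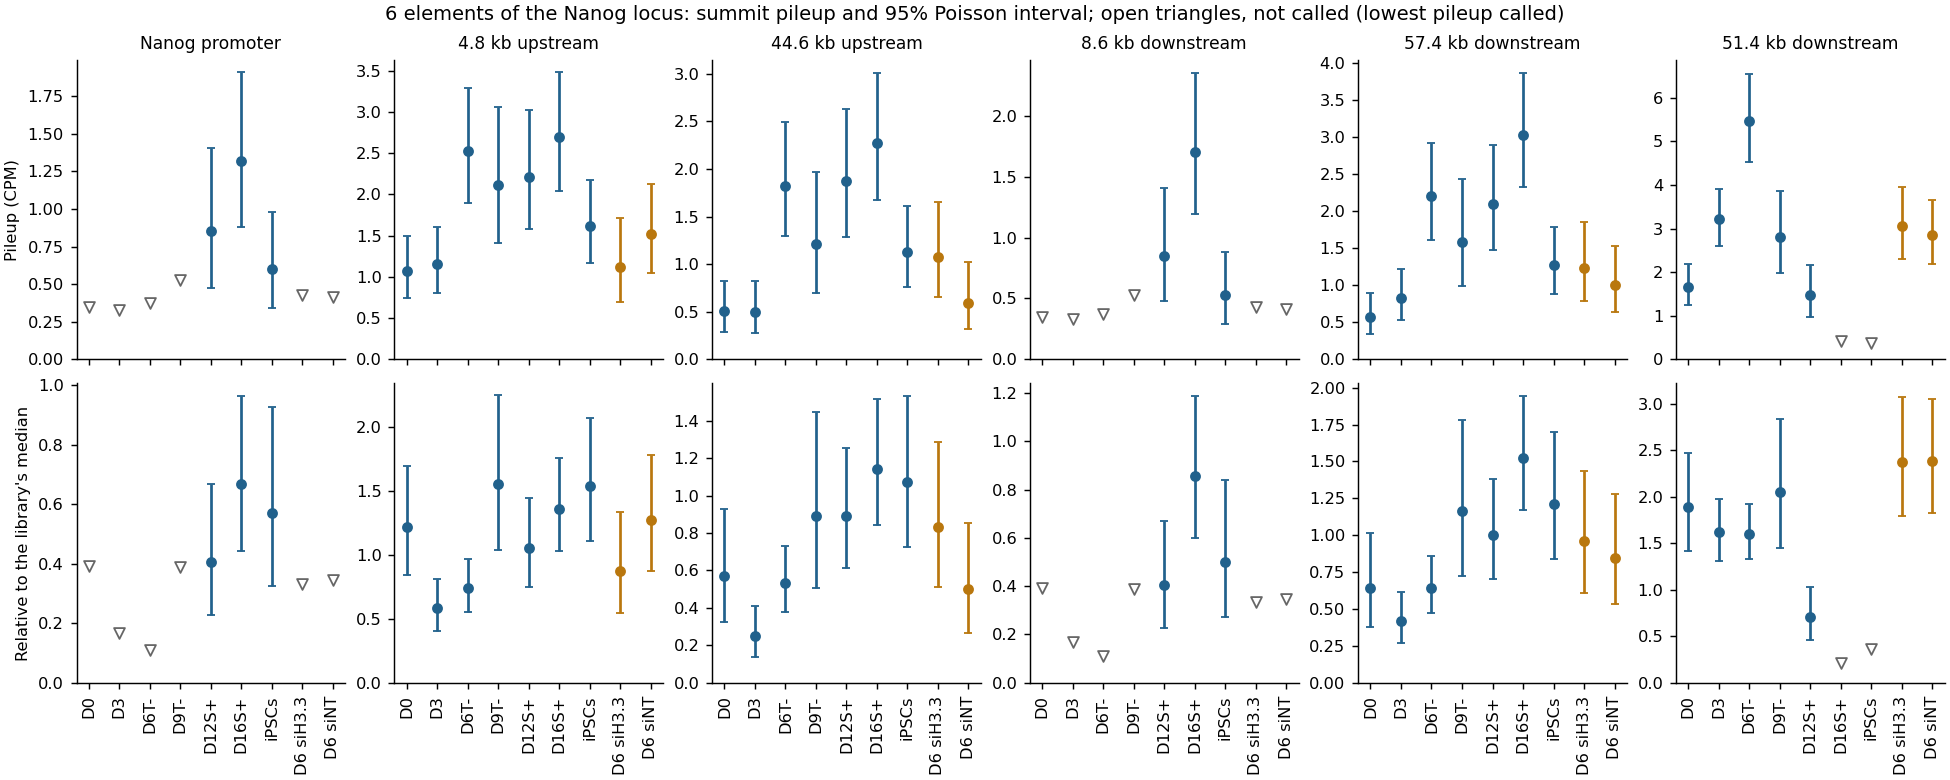
Summit pileup of 6 elements in the 9 libraries. The upper row gives CPM and the lower row the same values relative to the library's median over regions called in all 9; points are single libraries (blue, time course; orange, siRNA) with 95% Poisson intervals, and open triangles stand at the lowest pileup called where the element was not called. The Nanog promoter and the element 8.6 kb downstream have points in the 3 late libraries only, whereas the element 51.4 kb downstream has none in D16S+ and iPSCs.

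Ratios between libraries were counted as past 2-fold, with a library without a call set to its lowest pileup called. From D0 to iPSCs, 8 of 38 elements were higher (21.1%, background 9.72%) and 3 were lower (7.89%, background 10.5%). The higher elements included those upstream of Dppa3 (4.12-fold), 58.8 kb downstream of Nanog (2.93-fold), at the Slc2a3 start (2.39-fold) and at the Gdf3 promoter (2.17-fold), and the lower ones were those 51.4 kb downstream and 17.6 kb and 142.2 kb upstream of Nanog. The Nanog promoter (1.74-fold) and the element 8.6 kb downstream (1.52-fold) were not past 2-fold, with D0 at its lowest pileup called. In relative pileup the counts were 3 higher (background 5.69%) and 3 lower (background 17.2%). From D0 to D6T-, 25 of 36 elements were higher (background 45.4%) and 0 were lower (background 0.418%), but in relative pileup 0 were higher (background 0.866%) and 6 were lower (16.7%, background 30.1%): the median log2 ratio of all tested regions was 0.92 in CPM and -1.03 in relative pileup.

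From D6T- to D12S+, 3 of 44 elements were higher (background 2.83%), namely the promoters of Gdf3 and Nanog and the element 8.6 kb downstream, and 9 were lower (background 29.2%). In relative pileup this split turned to 11 higher (25%, background 9.05%) and 2 lower (background 8.48%). From D12S+ to iPSCs, 0 of 41 were higher (background 0.995%) and 7 were lower (background 21.0%), which turned to 8 higher (19.5%, background 30.2%) and 0 lower (background 1.11%) in relative pileup. The counts past 2-fold thus depended on the scale. The elements 51.4 kb downstream and 17.6 kb upstream of Nanog were lower in D12S+ than in D6T- by more than a factor of 2 on both scales.

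Knockdown of H3.3 was compared at day 6, where 22 elements were called in either siRNA library. Of these, 0 were past 2-fold higher in D6 siH3.3 than in D6 siNT (background 2.21%) and 0 past 2-fold lower (background 0.907%), and both counts were 0 in relative pileup too (background 1.30% and 1.65%). The 17 elements called in both had ratios from 0.743 (4.8 kb upstream of Nanog) to 1.80 (44.6 kb upstream), with a median of 1.10, and 16 of the 17 intervals included equal levels. The exception was the strong element 103.5 kb downstream, with 128 tags in D6 siH3.3 (6.86 CPM) and 100 in D6 siNT (4.59), a ratio of 1.49 (1.14 to 1.96) and of 1.39 in relative pileup. Called in D6 siH3.3 only were 4 elements, with 9 to 13 tags, among them those upstream of Dppa3 (9 tags), at the Slc2a3 start (11) and 46.7 kb upstream of Nanog (12). Called in D6 siNT only was the element 62.9 kb downstream (12 tags). These values were near the lowest pileup called, which was 8 tags in D6 siH3.3 and 9 in D6 siNT. Over the genome, 52617 regions were called in either siRNA library, 43196 in D6 siH3.3 and 42377 in D6 siNT, so regions called in only 1 of them were common. The promoters of Nanog and Gdf3 were called in neither, as in the untransfected D6T- cells. D6T- held all 22 elements of the siRNA libraries and 14 more, and its median over regions called in all 9 libraries was also 2.86 times that of D6 siNT.

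**Figure D5:**
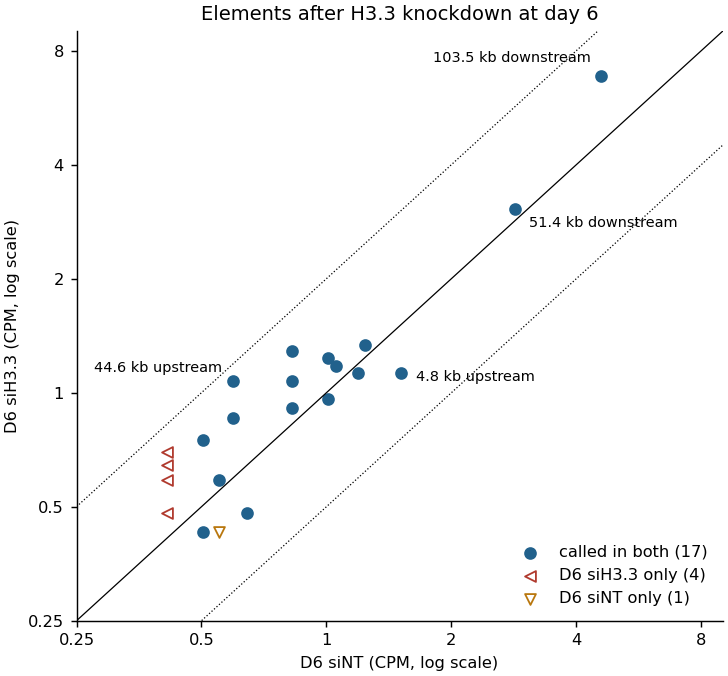
Elements of the locus at day 6 with and without H3.3 knockdown. Each axis is the summit pileup in CPM on a log scale, D6 siNT horizontally and D6 siH3.3 vertically; circles are the 17 elements called in both, triangles the 5 called in 1 of them, placed at the lowest pileup called in the other, the line marks equal levels and the dotted lines 2-fold. All points lie between the dotted lines.

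Of the other genes of the pluripotency network, given as a list of 20 (9 of them among the 10 markers above), 19 had a promoter called in D0 or iPSCs. In iPSCs 14 of the 19 were higher than in D0 past 2-fold in CPM and 0 were lower, where 14.3% of the promoters of all 19337 genes tested were higher and 2.97% were lower. This count was not taken in relative pileup. Called in D0 were 8 of the 20, in D12S+ 14 and in D16S+ and iPSCs 19 each. Zfp42 (Rex1), a zinc-finger marker of embryonic stem cells, was like Nanog called in D12S+ (1.31 CPM), D16S+ (2.88) and iPSCs (1.5) only, whereas Esrrb, an orphan nuclear receptor, was already called in D0 (0.568) and reached 1.61 in D16S+. The median over regions called in all 9 libraries also differed, at 0.883 CPM in D0 and 1.98 in D16S+.

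Over the 9 libraries, the promoters whose log2 levels were most like those of the Nanog promoter, by Pearson's r across 15197 protein-coding genes, were those of Lrrc33 (r = 0.995), Gm17562 (0.993), Dnd1 (0.99), Kcnh7 (0.989) and Rlbp1 (0.988). Kcnh7 was called in 5 libraries and the other 4 genes in the 3 late libraries. With most libraries at the lowest pileup called, this likeness rests on few points: 132 genes reached an r of 0.9.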

How the data were processed

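ATAC-Seq peaks of 9 libraries, 1 per condition, were grouped by their labels. According to the methods and the file headers, the authors used STAR to map 51 bp reads to mm9, dropped reads with several matches, removed duplicates with Picard and ran MACS2 2.1.0.20151222 for peaks, without a control or local background, at a q-value cutoff of 0.05 and with tags extended to 200 bp. Reads in exact repeats are thus not seen. The deposited pileup is a signal (extended tags over the summit, not scaled for depth). The deposited fold enrichment divides that pileup by an even genome background (a ratio), and the deposited significance is −log10 of the p-value and q-value.

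Peaks on chromosomes 1 to 19, X and Y that shared at least 1 bp were joined over the libraries, and the highest pileup of each library was divided by its total tags (CPM). The header gives these totals, from 13213117 to 31714845. Intervals are exact 95% Poisson intervals, and those of ratios are exact conditional binomial intervals. Genes were those of GENCODE vM1 (mm9), with the 3 kb upstream of a TSS as promoter, and Tfcp2l1 was matched through its RefSeq synonym. Motifs were read in 200 bp around the strongest summit. No test between conditions was possible, and functions were tested on simulated data. Named were the promoter and nearby elements of the member genes, the strongest elements, those past 2-fold and those of 1 siRNA library, and the 5 promoters most like that of Nanog. The members and lists were chosen with earlier results of these data known. Alternatives were a q-value of 0.01, equal numbers of regions, joining within 500 bp, scaling to the median of shared regions, fold enrichment, flanks of 10 and 50 kb, a fold of 1.5, leaving out D9T-, a shorter promoter and motif windows of 300 bp. One neighbouring gene is not reported here. The work used Python 3.11.15, numpy 2.4.6, pandas 2.3.3, scipy 1.17.1 and matplotlib 3.10.9.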

Additional observations from a re-analysis of the deposited data

How the results depend on the processing

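No paired analysis was possible because each condition had 1 library. Of the counts and values above, 138 stayed within a factor of 1.5 of the reported one (a value with no count, within its interval) and 23 moved, and the cause was not tested beyond the construction of each setting. Among those that stayed are settings that could not move a value, such as leaving out D9T- for a ratio of other libraries. These totals are therefore no measure of how stable the results are. When each library kept only its 36441 strongest regions, 9 elements were called in D0 and 14 in D6T-, 2 were higher in iPSCs than in D0, 13 were higher in D6T- than in D0, 0 were higher and 5 lower in D12S+ than in D6T-, and 4 were lower in iPSCs than in D12S+. With relative pileup, 3 were higher in iPSCs than in D0, 0 higher and 6 lower in D6T- than in D0, 11 higher and 2 lower in D12S+ than in D6T-, and 8 higher and 0 lower in iPSCs than in D12S+. At a fold of 1.5, 23 were higher in iPSCs than in D0, 9 higher and 17 lower in D12S+ than in D6T-, 1 higher and 19 lower in iPSCs than in D12S+, and 4 higher in D6 siH3.3 than in D6 siNT. A q-value of 0.01 and joining within 500 bp each left 5 higher in iPSCs than in D0, and fold enrichment left 3 lower in iPSCs than in D12S+. The Nanog promoter was called in 3 libraries under a q-value of 0.01, equal numbers of regions, joining within 500 bp and without D9T-. Depth limits the elements of 8 to 15 tags most, whose Poisson intervals span more than a factor of 2.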

Other observations

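Exons of the 5 genes of the locus, away from any TSS, held a small group of elements that was picked after the values were seen. Of the elements of the locus, 4 had their strongest summit in such an exon and over 500 bp from a TSS, and all 4 were called in D16S+, in exons of Apobec1 (22 tags), Gdf3 (22 tags), Nanog (14 tags) and Slc2a3 (15 tags). Besides D16S+, the Gdf3 element was called in D12S+ (13 tags) and the Slc2a3 element in iPSCs (12 tags), and no library of days 0 to 9 had any of the 4. In all 4 the strongest summit was that of D16S+, so their place in an exon was read from that library. The Apobec1 and Nanog elements were called in D16S+ alone, so D16S+ itself brought them into the count. That all 4 were called in D16S+ is thus partly set by how they were picked. D16S+ had 65.5% of the elements of the locus called and 22.3% of all regions. The share among such exon regions of the genome was not counted. Whether the 4 differ from other exon regions was therefore not tested.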
